A study of Schmidtea mediterranea with 6 samples.

Results

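Transcripts for protein folding in the endoplasmic reticulum (ER) were followed in regenerating trunks of the planarian Schmidtea mediterranea after RNAi of cct3A. The 6 transcripts were chosen by name, out of 26558 listed. They are HSP90B1 (dresden_comp758_c1_seq1), DNAJC3 (dresden_comp4016_c0_seq1), pdia13 (dresden_comp10003_c0_seq1), P4HB in a pair of transcripts (dresden_comp250_c0_seq1 and dresden_comp13521_c0_seq1) and PDIA5 (dresden_comp821_c0_seq1). All 6 were found in the table. Transcripts that share a gene name are told apart below by the number in their identifier, as in P4HB comp250 and P4HB comp13521.

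The ER is where proteins that will be secreted or placed in membranes are folded. Its HSP70, BiP, and its HSP90, HSP90B1 (endoplasmin), hold and mature client proteins, DNAJC3 is a J-domain co-chaperone that hands clients to BiP, and disulphide isomerases make, break and reshuffle the disulphide bonds of folding proteins. In mammals many of these genes are targets of the unfolded protein response (UPR), in which XBP1 and ATF6 are transcription factors that raise ER folding capacity. Stem cells, secretory gland cells and other differentiated cells all contribute to RNA from a whole trunk. The ER location of the 6 products rests on their names and on what is known of them in mammals, since the study's gene tables list HSP90B1 and DNAJC3 under the cytosol.

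All animals were of the asexual strain. The cct3A(RNAi) planarians had received double-stranded RNA against cct3A, which encodes a subunit of the cytosolic chaperonin TRiC, and the controls had received double-stranded RNA against gfp, a sequence that planarians lack. Trunks were collected at 72 h of regeneration (72hR), with 3 libraries of cct3A(RNAi) and 3 of gfp(RNAi) planarians, each from 5 pooled trunks. According to the study all of these animals were starved, a state that the labels leave out, and no fed planarians were compared here.

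Levels are given as normalised TPM, an abundance per transcript length that the authors scaled between libraries, so that levels can be compared between transcripts. The study's methods give reads over all 6 libraries together but not the depth of each, which these values do not keep, so the precision rests on the 3 libraries per group. The values summed to between 1004960 and 1048450 in the cct3A(RNAi) libraries and to between 959963 and 999939 in controls. cct3A itself was between 13.3 and 14.0 normalised TPM in cct3A(RNAi) planarians and between 386 and 403 in controls. Changes were tested with limma on log2(value + 0.5) over the 18062 transcripts whose mean was at least 1, with Benjamini-Hochberg adjustment over all of them and a threshold of 0.05, and are given as cct3A(RNAi) over gfp(RNAi). In all, 445 transcripts (2.46% of those tested) were lower and 321 (1.78%) were higher in cct3A(RNAi) planarians, so that 58.1% of the calls were lower. After every library was rescaled to the same sum, 1154 were lower and 103 were higher, and 91.8% of the calls were lower.

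HSP90B1, DNAJC3 and pdia13 fell in cct3A(RNAi) planarians, by between 0.18 and 0.26 on the log2 scale, whereas both P4HB transcripts and PDIA5 did not pass the test. Thus 3 of the 6 transcripts were called lower, against 2.46% of all tested transcripts. By limma 0 of the 6 were higher, against 1.78%, and 0 were higher at an unadjusted p under 0.05, against 12.6%. With so few transcripts, counts of 0 are close to those shares. The levels of the same 3 did not overlap between groups, with all cct3A(RNAi) libraries below all controls, as was so for 16.1% of the tested transcripts. The fitted change was below 0 for all 6, with a median of -0.13 against 0.0034 over all tested transcripts, and it stayed below 0 for all 6 under each scaling tried. The study had picked DNAJC3 and pdia13 on the strength of these libraries, so the direction of that pair is not independent evidence. Of the other 4, which the study named from other libraries of sorted stem cells during starvation, 1 (HSP90B1) fell. Since whole trunks were sequenced, fewer cells of a type and less RNA per cell cannot be told apart.

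**Figure D1:**
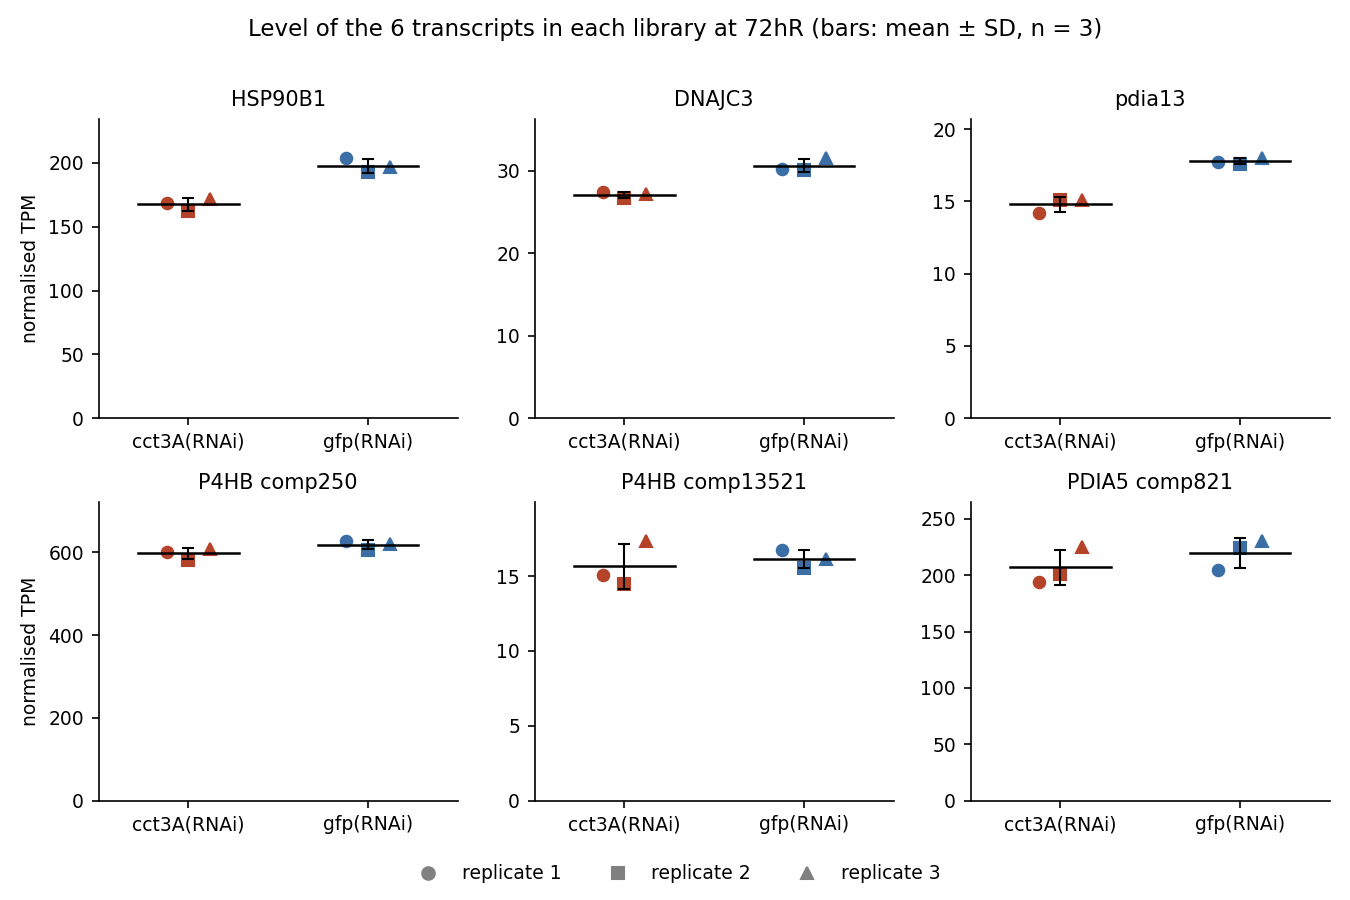
Level of each of the 6 transcripts in normalised TPM (vertical axis, from 0), with cct3A(RNAi) libraries in red and gfp(RNAi) libraries in blue. Symbols are single libraries and bars are the mean ± SD (n = 3). HSP90B1 lay between 162 and 172 in cct3A(RNAi) planarians and between 193 and 204 in controls, while the groups overlapped for both P4HB transcripts and PDIA5.

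HSP90B1, the HSP90 chaperone of the ER lumen, was at 168, 162 and 172 normalised TPM in the cct3A(RNAi) libraries, against 204, 193 and 197 in the gfp(RNAi) libraries. The highest cct3A(RNAi) library was 20.6 normalised TPM below the lowest control. The mean was 168 ± 4.93 in cct3A(RNAi) planarians and 198 ± 5.71 in controls (SD, n = 3 each), a decrease of 15.3%, and the log2 change of HSP90B1 was -0.24 (SE 0.036, 95% CI -0.32 to -0.15, limma adjusted p = 0.0281). It was an abundant transcript in both groups. Among the 26558 transcripts it ranked 816, 834 and 806 from the top in the cct3A(RNAi) libraries and 643, 683 and 684 in controls. The within-group SD was 0.042 on the log2 scale, against a median of 0.081 over all tested transcripts, which were not matched to HSP90B1 in abundance.

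DNAJC3, known in mammals as an ER co-chaperone of BiP that also restrains the stress kinase PERK, was at 27.4, 26.6 and 27.1 normalised TPM in cct3A(RNAi) planarians, against 30.3, 30.1 and 31.5 in controls. All cct3A(RNAi) libraries were below all controls, with a gap of 2.70 normalised TPM. The mean was 27.0 ± 0.386 against 30.6 ± 0.791 (SD, n = 3 each), and its log2 change was -0.18 (SE 0.035, 95% CI -0.26 to -0.094, limma adjusted p = 0.0434). This was the smallest of the changes that passed and also the tightest of the 6 transcripts, with a within-group SD of 0.029. DNAJC3 ranked between 4678 and 4794 in cct3A(RNAi) libraries and between 4179 and 4323 in controls. Its call did not survive the loss of any 1 library, with an adjusted p of between 0.0822 and 0.126 in the 6 fits that left one out.

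pdia13 carries the name of a membrane-bound disulphide isomerase, which in human is also called TMX3. Its level was 14.2, 15.1 and 15.1 normalised TPM in cct3A(RNAi) planarians, against 17.7, 17.6 and 18.0 in controls. The controls were nearly level with each other, and all lay at least 2.50 normalised TPM above the highest cct3A(RNAi) library. The mean was 14.8 ± 0.520 against 17.8 ± 0.199 (SD, n = 3 each), a decrease of 16.7%, and its log2 change was -0.26 (SE 0.041, 95% CI -0.35 to -0.16, limma adjusted p = 0.0289). Its rank was between 7375 and 7608 in cct3A(RNAi) libraries and between 6597 and 6726 in controls, so this was one of the least abundant of the 6 transcripts.

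The calls of HSP90B1 and pdia13 also leaned on the number of libraries. When one library was left out at a time, HSP90B1 passed in 1 of 6 fits (without cct3A(RNAi) replicate 2, adjusted p = 0.0486) and otherwise reached an adjusted p of up to 0.0996. For pdia13, 1 of 6 fits passed as well, again without cct3A(RNAi) replicate 2 (adjusted p = 0.0453), and the highest adjusted p was 0.111. In those fits the change of HSP90B1 stayed between -0.26 and -0.22 and that of pdia13 between -0.27 and -0.23. Fewer transcripts passed in general when a library was left out, between 15 and 361 lower in place of 445. Without a variance trend in the fit, where 24 transcripts were lower and 9 higher, none of the 3 passed (adjusted p = 0.0824 for HSP90B1, 0.0967 for DNAJC3 and 0.0746 for pdia13), and DNAJC3 missed the threshold with no filter as well (0.0582).

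**Figure D2:**
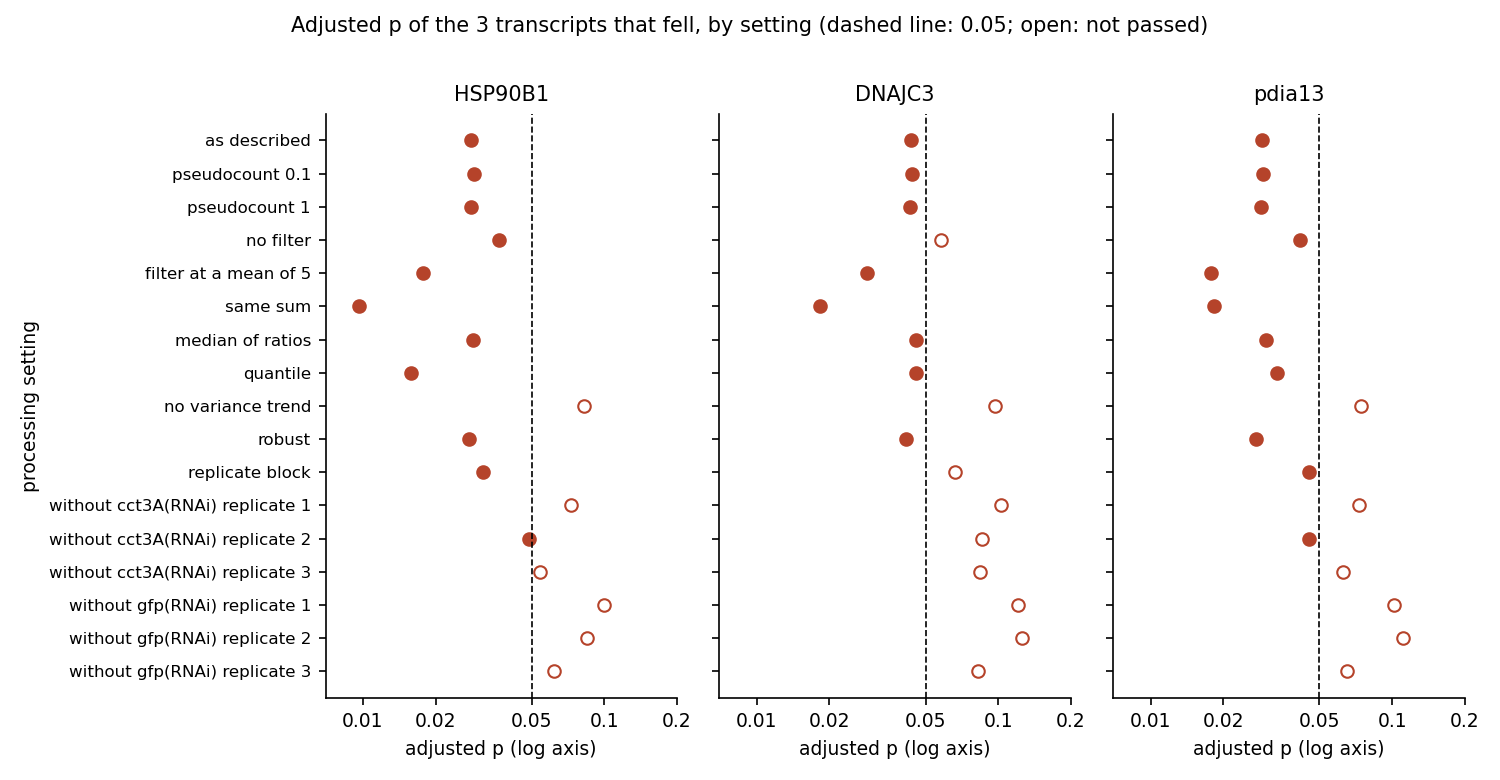
Adjusted p (horizontal log axis) of HSP90B1, DNAJC3 and pdia13 under each processing setting (vertical axis), with filled circles for an adjusted p under 0.05 and open circles for one above it. HSP90B1 ranged up to 0.0996, DNAJC3 up to 0.126 and pdia13 up to 0.111, all 3 in fits that left out 1 library.

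P4HB encodes protein disulphide isomerase itself, the founding member of the family, which also serves as a subunit of collagen prolyl hydroxylase. P4HB comp250 was the most abundant of the 6 transcripts, at 602, 582 and 609 normalised TPM in cct3A(RNAi) planarians, against 629, 606 and 621 in controls. One cct3A(RNAi) library lay above the lowest control, so the groups overlapped. The mean was 598 ± 13.8 against 619 ± 11.4 (SD, n = 3 each), and the log2 change was -0.051 (95% CI -0.13 to 0.030, limma adjusted p = 0.394). The interval leaves room for a decrease of up to 0.13 on the log2 scale, and it does not reach the fitted change of HSP90B1. The ranks did not overlap, between 253 and 256 in cct3A(RNAi) libraries and between 229 and 232 in controls, although the levels did. This is the member for which the scaling between libraries matters most. P4HB comp250 fell by 0.17 after quantile normalisation (adjusted p = 0.0287), and with libraries of equal sum its change was -0.13 (adjusted p = 0.0514).

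P4HB comp13521 was at 15.1, 14.5 and 17.4 normalised TPM in cct3A(RNAi) planarians, against 16.7, 15.6 and 16.2 in controls. Both the lowest and the highest of the 6 values came from cct3A(RNAi) libraries. Its log2 change was -0.048 (95% CI -0.21 to 0.11, limma adjusted p = 0.708), and it turned to 0.0031 without cct3A(RNAi) replicate 2. The proportion within the pair overlapped between groups. comp250 was 40.0, 40.2 and 35.0 times as abundant as comp13521 in cct3A(RNAi) libraries, against 37.6, 38.98 and 38.5 times in controls. The share of comp250 in the pair was 97.5% ± 0.196 in cct3A(RNAi) planarians and 97.5% ± 0.0443 in controls (SD, n = 3 each), a difference of -0.0062 percentage points (exact two-sided permutation test, p = 1). Reads of the pair may have been split between them if their sequences are alike, which was not tested.

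PDIA5, another member of the isomerase family, was named in 3 transcripts by the study, of which comp821 was the most abundant. PDIA5 comp821 was at 194, 201 and 225 normalised TPM in cct3A(RNAi) planarians, against 205, 224 and 231 in controls. The groups overlapped, and the spread within groups was wide, with an SD of 0.10 on the log2 scale. Its log2 change was -0.089 (95% CI -0.24 to 0.064, limma adjusted p = 0.435). The interval includes the fitted change of HSP90B1, so a decrease of that size is within the error of this value. The other PDIA5 transcripts had log2 changes of -0.050 (comp1537, adjusted p = 0.565) and -0.0059 (comp3506, adjusted p = 0.963). comp821 held 57.4%, 60.8% and 62.0% of the PDIA5 total in cct3A(RNAi) libraries, against 60.5%, 61.8% and 60.8% in controls. The mean share was 60.1% ± 2.36 in cct3A(RNAi) planarians and 61.0% ± 0.718 in controls (SD, n = 3 each), a difference of -0.95 percentage points (exact two-sided permutation p = 0.9).

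The 6 transcripts covered a wide range of abundance. P4HB comp250 was among the top 0.911% of the list by mean level, PDIA5 comp821 among the top 2.38% and HSP90B1 among the top 2.79%. DNAJC3 stood at 16.9%, pdia13 at 26.5% and P4HB comp13521 at 27.0%. P4HB comp250 alone made up 58.1% of their summed level in cct3A(RNAi) planarians and 56.2% in controls, while HSP90B1 made up 16.3% and 18.0%. Together the 6 transcripts summed to 1029 ± 32.5 normalised TPM in cct3A(RNAi) planarians and 1101 ± 14.1 in controls (SD, n = 3 each), a decrease of 6.5%. That was 0.1003% of all signal in cct3A(RNAi) libraries and 0.113% in controls. The fold decreases did not follow abundance, since the abundant HSP90B1 and the scarce pdia13 fell by similar amounts and P4HB comp250, the most abundant, did not pass.

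The isomerases were next set against each other within each library. The study named 9 disulphide isomerase transcripts, the 4 described here and pdia3, pdia12, PDIA2 and a further pair of PDIA5 transcripts. Of the other 5, pdia3 fell and 0 rose by limma, against 2.46% and 1.78% of all tested transcripts. At an unadjusted p under 0.05, 2 of the 5 were lower and 0 higher, against 13.3% and 12.6%. The study had picked pdia3 and pdia12 on these libraries, so their direction is not independent evidence. pdia3, which in mammals acts with calreticulin on glycoproteins, was at 60.3, 74.2 and 64.9 normalised TPM in cct3A(RNAi) planarians, against 101, 142 and 96.9 in controls. Its groups did not overlap, though 1 control, replicate 2, stood well above the others. pdia3 had a log2 change of -0.75 (SE 0.14, limma adjusted p = 0.0415), the largest decrease among the named isomerases, and one of -0.58 without gfp(RNAi) replicate 2 (adjusted p = 0.0696). It passed in none of the 6 fits that left out 1 library (adjusted p between 0.0502 and 0.116). pdia12, which shares its name with a membrane-bound thioredoxin-like protein of human, changed by -0.37 (adjusted p = 0.0631) and passed with libraries of equal sum (0.0403) or a filter at a mean of 5 (0.0408), and PDIA2 by 0.012 (adjusted p = 0.898).

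The 4 isomerases described here held 67.7%, 67.0% and 67.6% of the 9-transcript total in cct3A(RNAi) libraries, against 66.8%, 64.2% and 66.3% in controls. The shares did not overlap, with means of 67.5% ± 0.392 and 65.7% ± 1.40 (SD, n = 3 each). The difference of 1.71 percentage points had p = 0.10 in the exact two-sided permutation test, which is the smallest p that 3 libraries against 3 allow, and 0.16 adjusted over the 8 shares and ratios compared. Without gfp(RNAi) replicate 2, the control with the highest pdia3, the difference was 0.918 percentage points. The direction rested on pdia3, which the study had picked on these libraries, so it is not independent evidence. Without pdia3 the share was 71.3% ± 0.0664 in cct3A(RNAi) planarians and 71.9% ± 0.512 in controls, a difference of -0.57 percentage points (exact permutation p = 0.10), a comparison chosen after the values had been seen. P4HB comp250 was the main isomerase in every library, at between 47.6% and 49.4% of the 9 transcripts in cct3A(RNAi) planarians and between 45.0% and 48.4% in controls.

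**Figure D3:**
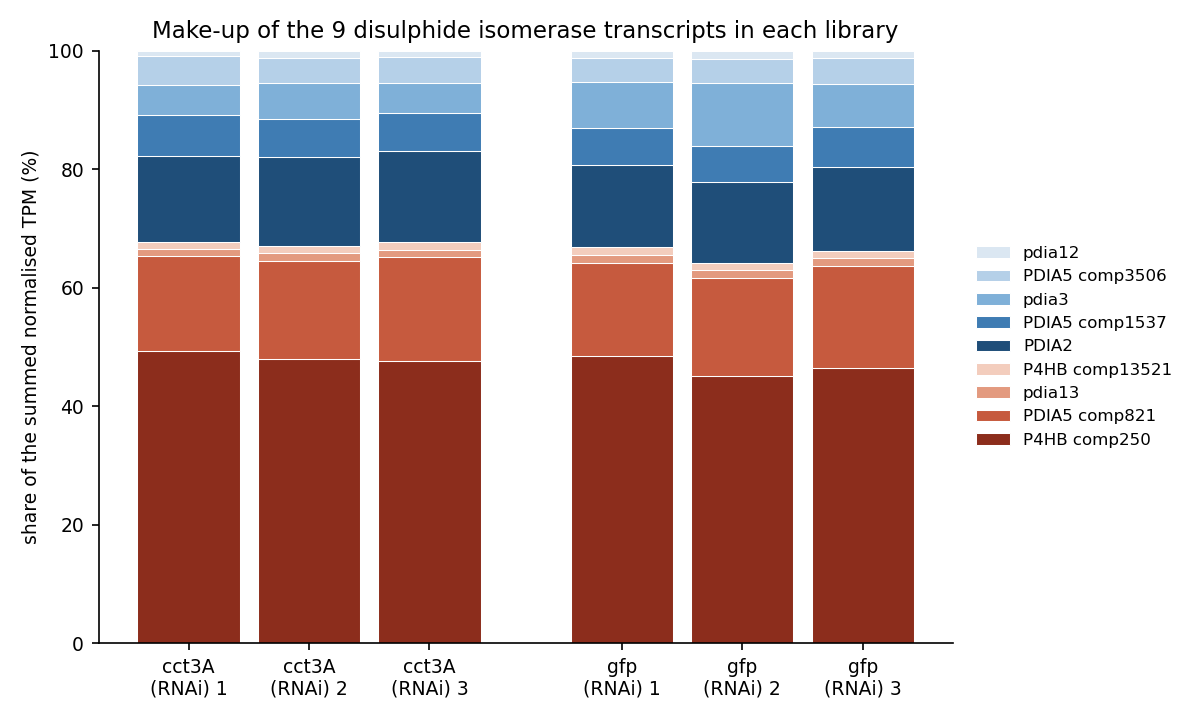
Share of each of the 9 disulphide isomerase transcripts in their summed normalised TPM (vertical axis, percent), 1 stacked bar per library, with the cct3A(RNAi) libraries on the left. The 4 transcripts described here are in red shades and together held between 67.0% and 67.7% in cct3A(RNAi) libraries and between 64.2% and 66.8% in controls. pdia3 held a mean of 5.38% in cct3A(RNAi) planarians and 8.52% in controls.

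HSP90 transcripts of the ER and of the cytosol moved in opposite directions. The study named 4 HSP90 transcripts, HSP90B1, a pair called HSP90AA1 (the cytosolic HSP90) and TRAP1 (the mitochondrial HSP90). HSP90AA1 comp678 was at 289, 269 and 279 normalised TPM in cct3A(RNAi) planarians, against 208, 208 and 210 in controls, and rose by 0.42 on the log2 scale (SE 0.034, limma adjusted p = 0.00409). HSP90AA1 comp56, the most abundant HSP90 transcript, was at 1863, 1742 and 1833 against 1527, 1505 and 1578 normalised TPM, and rose by 0.24 (SE 0.044, limma adjusted p = 0.0383). Both had been listed by the study as raised in these libraries, so their direction is not independent evidence. In all, 2 of these 3 rose, where 1.78% of all tested transcripts did. By limma 0 fell, against 2.46%, and 0 were lower at an unadjusted p under 0.05, against 13.3%. The call of HSP90AA1 comp56 was lost after quantile normalisation (adjusted p = 0.0685) and with no filter (0.0630), and of the fits that left out 1 library it passed only without cct3A(RNAi) replicate 2. TRAP1 changed by 0.045 (adjusted p = 0.341), and by -0.030 with libraries of equal sum.

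HSP90B1 made up 6.93%, 7.10% and 7.18% of the HSP90 total in cct3A(RNAi) libraries, against 9.97%, 9.57% and 9.39% in controls. No cct3A(RNAi) library came near the controls. The mean share was 7.07% ± 0.131 against 9.64% ± 0.292 (SD, n = 3 each), a difference of -2.57 percentage points (exact two-sided permutation p = 0.10, adjusted 0.16 over 8). Most of the HSP90 total was HSP90AA1 comp56 and comp678 in both groups, and the study had listed both as raised in these libraries. The lower share of HSP90B1 is therefore not independent evidence. Set against HSP90AA1 comp678 alone, HSP90B1 was at 0.584, 0.603 and 0.617 times its level in cct3A(RNAi) libraries and at 0.979, 0.926 and 0.937 times in controls. Thus HSP90B1 and HSP90AA1 comp678 were almost equally abundant in control trunks and not in cct3A(RNAi) trunks. The main cytosolic transcript, HSP90AA1 comp56, was far above both, at a mean of 1537 normalised TPM in controls. The log2 ratio differed by -0.66 (SE 0.033, exact permutation p = 0.10, adjusted 0.16), the widest of the 4 ratios compared. HSP90AA1 comp678, listed by the study as raised in these libraries, changed by 0.42 and HSP90B1 by -0.24. The width of this ratio is therefore not independent evidence. A common factor on all values of a library leaves such a ratio nearly as it is.

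HSP90B1 was next set against bip-1, which the study had picked on these libraries. bip-1, the transcript of the major ER HSP70, was at 235, 231 and 240 normalised TPM in cct3A(RNAi) planarians, against 283, 282 and 289 in controls, with a log2 change of -0.28 (SE 0.030, limma adjusted p = 0.0116). HSP90B1 stood at 0.718, 0.703 and 0.718 times bip-1 in cct3A(RNAi) libraries and at 0.721, 0.683 and 0.680 times in controls. The groups overlapped, and the log2 ratio differed by 0.038 (SE 0.029, exact permutation p = 0.4, adjusted 0.533). That does not show that the ratio was the same, since the smallest p of the design is 0.10. A second BiP transcript, bip-2, overlapped between groups and had a log2 change of -0.056 (limma adjusted p = 0.435).

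The ratio of DNAJC3 to its HSP70 partner was slightly higher in the cct3A(RNAi) libraries than in the control libraries. The log2 ratio of DNAJC3 to bip-1 was -3.08, -3.09 and -3.12 in cct3A(RNAi) libraries, against -3.20, -3.21 and -3.18 in controls, with no overlap. There were 8.69 bip-1 transcripts per DNAJC3 transcript on average in cct3A(RNAi) planarians and 9.30 in controls. The difference of 0.10 on the log2 scale (SE 0.015) reached the smallest p allowed, 0.10 by the exact permutation test (adjusted 0.16). The study had picked both transcripts on these libraries, where bip-1 changed by -0.28 and DNAJC3 by -0.18. Their ratio is therefore not independent evidence.

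The ratio of P4HB comp250 to HSP90B1 did not overlap between the groups. P4HB comp250 was 3.57, 3.59 and 3.54 times as abundant as HSP90B1 in cct3A(RNAi) libraries, against 3.09, 3.15 and 3.16 times in controls. The log2 ratio was higher by 0.19 in cct3A(RNAi) planarians (SE 0.012, exact permutation p = 0.10, adjusted 0.16). That p is the smallest that the design allows, so the test could not have passed. P4HB comp250 thus stood higher relative to HSP90B1 in every cct3A(RNAi) library than in any control.

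**Figure D4:**
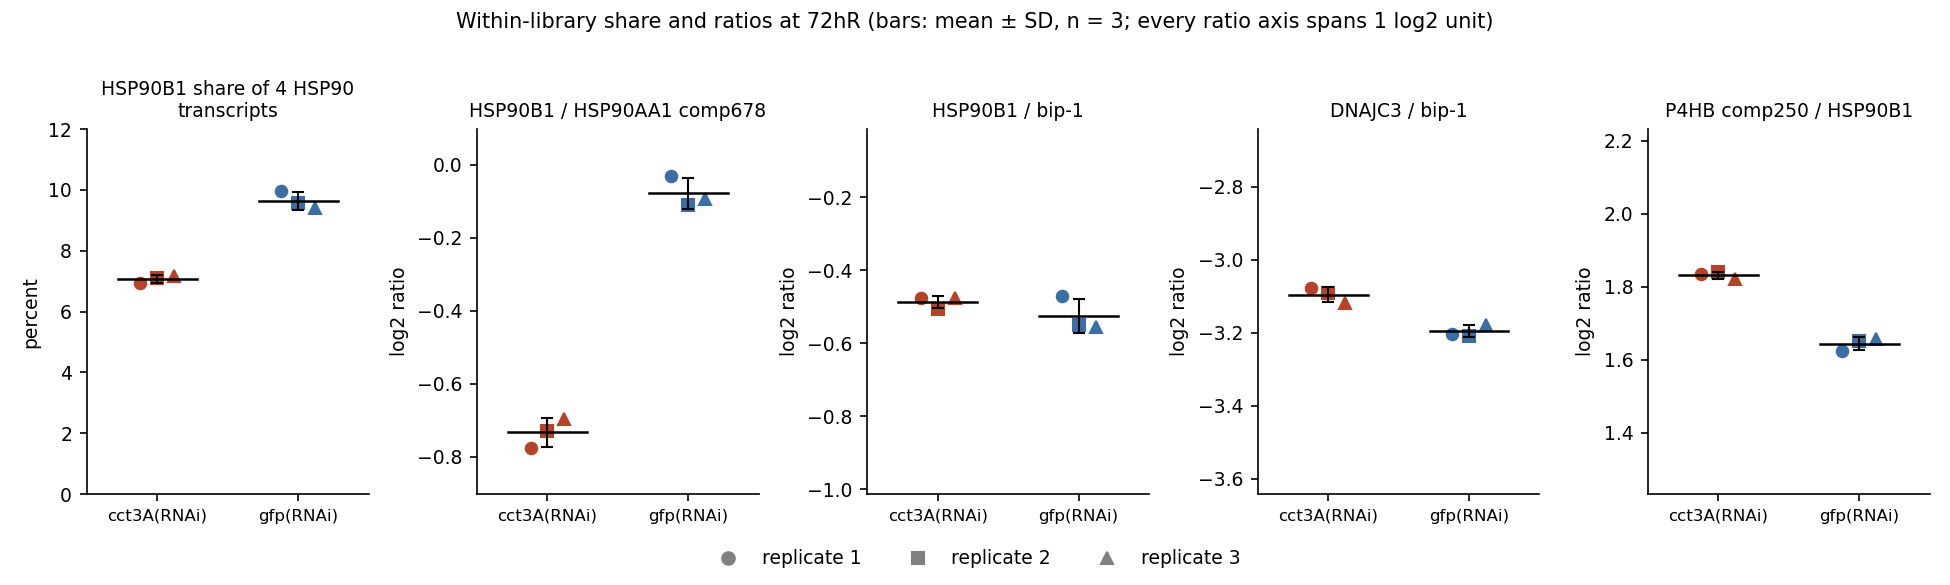
HSP90B1 share of the 4 HSP90 transcripts (percent, axis from 0) and 4 log2 ratios between transcripts of the same library (every ratio axis spans 1 log2 unit), with cct3A(RNAi) in red on the left and gfp(RNAi) in blue on the right. Symbols are libraries and bars are the mean ± SD (n = 3). The groups overlap for HSP90B1 over bip-1 and are apart in the other 4 panels, by -0.66 on average for HSP90B1 over HSP90AA1 comp678.

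Other transcripts of ER folding give the setting for these changes. Of 19 that the study named, 18 passed the filter, and 3 of these fell and 1 rose, against 2.46% and 1.78% of all tested transcripts. Those that fell were bip-1, pdia3 and calr (calreticulin, a calcium-binding lectin chaperone, -0.27, adjusted p = 0.0124), and the one that rose was dnajb9 (a J-domain co-chaperone, 0.20, limma adjusted p = 0.0441). The study had picked all 4 on these libraries. The call of dnajb9 was lost with libraries of equal sum (adjusted p = 0.106) and whenever 1 library was left out (up to 0.121), and those of bip-1 and calr were lost without gfp(RNAi) replicate 1 (0.0694 and 0.0722) or gfp(RNAi) replicate 2 (0.0644 and 0.0696). Of the 10 that it named only in its starvation tables, 0 passed by limma, with 4 lower and 0 higher at an unadjusted p under 0.05, where 13.3% of all tested transcripts were lower and 12.6% higher. They include PPIB, an ER prolyl isomerase (-0.14, adjusted p = 0.0574), Hyou1, a large HSP70-like chaperone (-0.14, adjusted p = 0.0613), and SIL1, a nucleotide exchange factor of BiP (-0.14, adjusted p = 0.192). PPIB and Hyou1 passed with libraries of equal sum (limma adjusted p = 0.0224 and 0.0247), after quantile normalisation (0.0348 and 0.0476) and with a filter at a mean of 5 (0.0426 and 0.0445). In all, 13 of the 18 had a fitted change below 0, a count that was 17 with libraries of equal sum and 16 after quantile normalisation. Over all tested transcripts, 49.1% were below 0. The median change of the 18 was -0.13, against 0.0034 over all tested transcripts. It was -0.028 for the 10 named only in the starvation tables, of which 6 were below 0, and -0.23 for the other 8, of which 7 were below 0 and which include those picked on these libraries. Among the 6 transcripts, the 4 that were not picked on these libraries had a median of -0.070.

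Most other J-domain transcripts were not lower. Of the 9 others named by the study, 2 rose (DNAJB1 of the cytosol, 0.18, adjusted p = 0.0350, and dnajb9), against 1.78% of all tested transcripts, and 0 fell by limma, against 2.46%. At an unadjusted p under 0.05, 5 of the 9 were higher and 1 was lower, against 12.6% and 13.3% of all tested transcripts, and 6 of the 9 were higher with no overlap, against 15.8%. The study had listed those 5, DNAJB1 and dnajb9 among them, as raised in these libraries. Their number and direction are therefore not independent evidence. The lower one was DNAJB11, which like DNAJC3 serves BiP in the ER, with a log2 change of -0.12 (adjusted p = 0.0903). With libraries of equal sum, 0 of the 9 rose, DNAJB1 stood at an adjusted p of 0.157 (up to 0.128 where 1 library was left out), and DNAJB11 fell by 0.20 on the log2 scale (adjusted p = 0.0394).

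**Figure D5:**
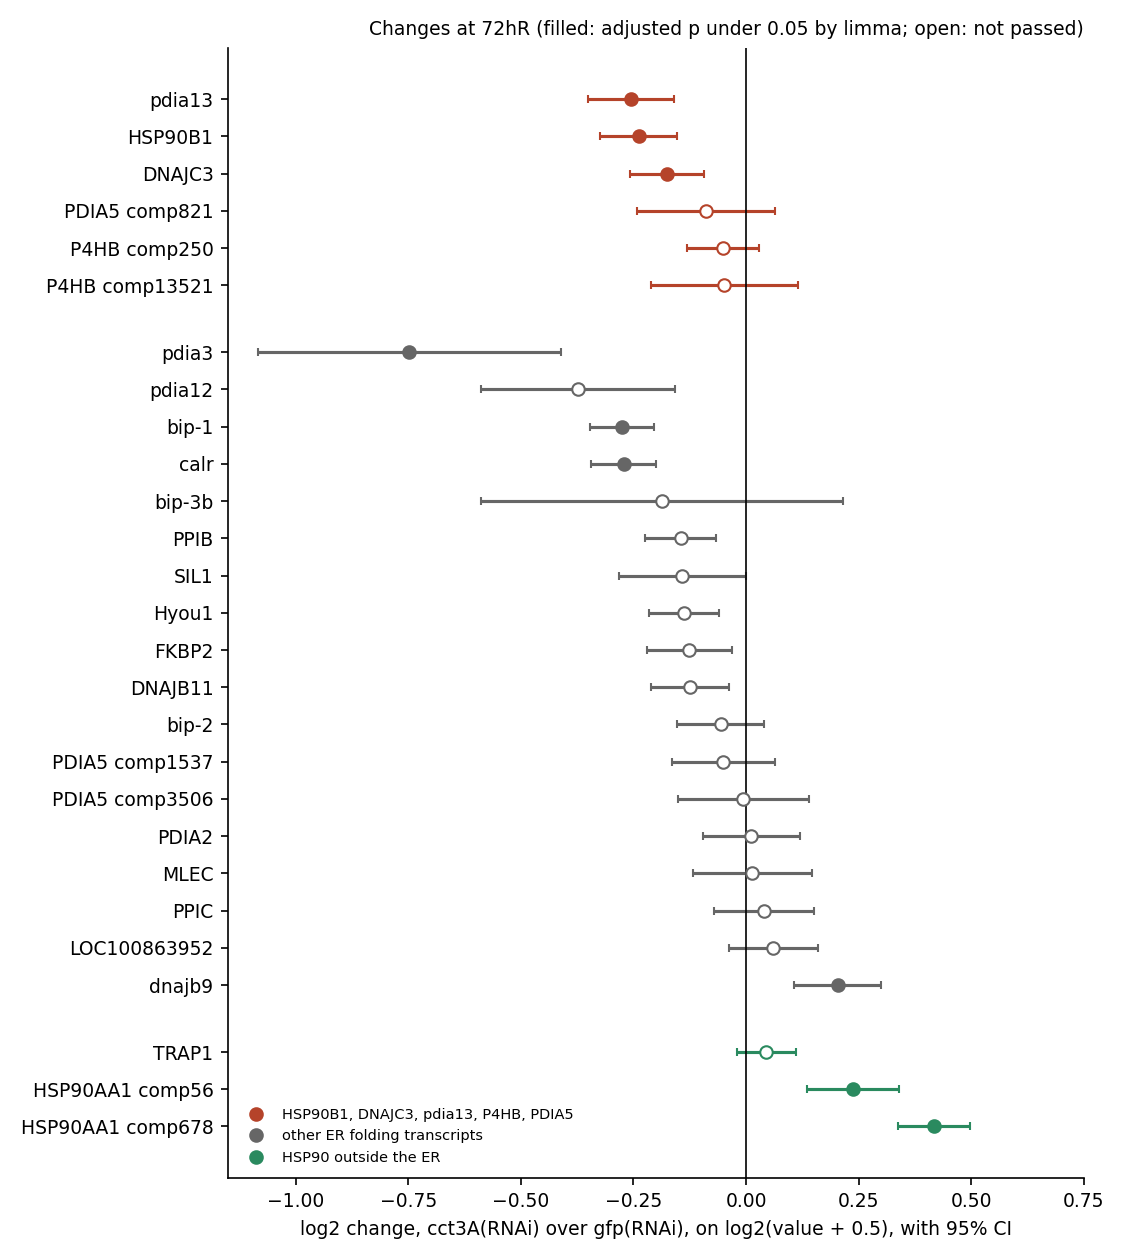
Log2 change (horizontal axis, cct3A(RNAi) over gfp(RNAi)) with its 95% CI for the 6 transcripts in red, 18 other ER folding transcripts in grey and 3 HSP90 transcripts outside the ER in green. Filled circles passed limma at an adjusted p under 0.05. HSP90B1, DNAJC3 and pdia13 lie between -0.26 and -0.18, beside bip-1 and calr, while both HSP90AA1 transcripts lie above 0.

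Transcripts of the study's gene tables were last ranked by how closely they followed each of the 6 over the 6 libraries, as a description, since all follow the same group difference. Among 142 candidates, HSP90B1 was followed most closely by bip-1 (Pearson r = 0.97), xbp1 (0.97) and EARS2 (0.96). DNAJC3 was followed by bip-1 (0.98), calr (0.97) and cct3A itself (0.97), and pdia13 by calr (0.99), xbp1 (0.99) and atf6 (0.98). xbp1 and atf6, the UPR transcription factors, changed by -0.35 (limma adjusted p = 0.00789) and -0.30 (limma adjusted p = 0.00692) and had been picked by the study from these libraries. Both missed the threshold without gfp(RNAi) replicate 1 or 2 (adjusted p between 0.0566 and 0.0595) and without a variance trend (0.0536 for xbp1 and 0.0522 for atf6). The study had also picked bip-1 and calr on these libraries, and cct3A was the RNAi target. That the transcripts which fell followed them therefore restates the calls. Those that did not pass had other transcripts as their 3 nearest, but P4HB comp250 also followed HSP90B1 (0.87) and DNAJC3 (0.78). P4HB comp250 was nearest to NARS2 (0.94), bip-3b (0.92) and bip-2 (0.89), and P4HB comp13521 to bip-2 (0.91), bip-3b (0.85) and EIF3M (0.82). bip-3b had a mean of only 1.17 normalised TPM, just above the filter, so its correlations rest on values near the floor. PDIA5 comp821 was nearest to EIF5 (0.86), HSPD1 comp6294 (0.85) and PDIA2 (0.75).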

How the data were processed

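RNA was extracted from pools of 5 regenerating trunks, and the labels gave each library's group and replicate number. The authors quantified reads against the Dresden transcriptome of planarians with kallisto (0.43.0, as listed in the submitters' processing notes) and scaled them in sleuth. What they deposited is an unfiltered signal, namely TPM over a library size factor, and not counts, so no count model was used. Plain TPM had been expected when the test was chosen, and the test stayed the same. The table held 0 unassigned value columns, and 0 pairs of libraries were identical.

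Values were tested as log2(value + 0.5) with limma 3.58.1 in R 4.3.3 (lmFit, eBayes with a trend, two-sided), with all 6 libraries and the RNAi target as the only factor. The procedure was run on simulated data, where direction and size were required to be right only for changes larger than those of the 6 transcripts. How often changes of their size are called is not given here. Shares and ratios were computed within libraries in Python 3.11.15 and compared by exact permutation (scipy 1.17.1), with adjustment over all 8. No label names separate cultures, and the p-values therefore reflect only how much these pools of trunks varied.

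The members and lists were chosen with earlier results of these data known. Names were paired with identifiers through the study's gene tables. Named were the 6 transcripts, other transcripts of the ER folding, HSP90, HSP40, UPR and target lists set beside them, and for each member the 3 transcripts of highest Pearson correlation. No markers of cell types could be paired with identifiers, and no genome or sequence was used. The test was repeated without a filter or with one at a mean of 5, with pseudocounts of 0.1 or 1, with libraries rescaled to equal sums, by median of ratios or by quantiles, with eBayes lacking a trend or made robust, with a block for the replicate number, and leaving out single libraries.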

Additional observations from a re-analysis of the deposited data

How the results depend on the processing

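The fitted changes of the 6 transcripts kept their direction in 95 of 96 alternative fits, and 73 of the 96 left both direction and call as they were. Without a variance trend the changes of HSP90B1 (-0.24), DNAJC3 (-0.18) and pdia13 (-0.26) no longer passed, so that 0 of the 6 transcripts and 0 of the other ER folding transcripts were called in either direction. With no filter DNAJC3 (-0.18, adjusted p = 0.0582) did not pass and 0 of the other ER folding transcripts rose. Quantile normalisation brought P4HB comp250 past the threshold (-0.17), called 5 of the other ER folding transcripts lower and 0 higher, and turned PDIA2 to -0.047. Rescaling to equal sums called 7 of them lower and 0 higher and turned PDIA2 to -0.064 and TRAP1 to -0.030. A filter at a mean of 5 called 6 of them lower. Over all tested transcripts, 172 were lower and 142 higher with no filter, and 670 and 614 with the filter at 5. The counts were 1154 and 103 with libraries of equal sum, 382 and 231 after quantile normalisation, and 24 and 9 without a trend.

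Leaving out 1 library at a time gave changes of between -0.26 and -0.22 for HSP90B1, between -0.19 and -0.15 for DNAJC3, between -0.27 and -0.23 for pdia13, between -0.065 and -0.032 for P4HB comp250, between -0.12 and 0.0031 for P4HB comp13521 and between -0.15 and -0.045 for PDIA5 comp821. It gave between 0 and 2 of the 6 transcripts called lower, and of the other ER folding transcripts between 0 and 2 lower and 0 higher. PDIA2 lay between -0.036 and 0.045 and PDIA5 comp3506 between -0.062 and 0.055. The difference in the P4HB comp250 share lay between -0.066 and 0.11 percentage points and that in the PDIA5 comp821 share between -1.90 and 0.37. The difference in the share of the 4 isomerases lay between 0.918 and 2.24. Leaving pdia3 out of the isomerases, chosen after the data had been seen, turned the difference in their share to -0.57 percentage points. The cause of these shifts was not tested.

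Nothing in the labels says that equal replicate numbers mark a shared batch. Deviations from the group means correlated at 0.048, 0.10 and 0.047 between libraries of the same number, and every library correlated best with its own number, which is a hint from the data only. With the replicate number as a block, 442 transcripts were lower and 218 higher, the change of DNAJC3 stayed at -0.18 (adjusted p = 0.0664), 2 of the 6 transcripts were called lower, and of the other ER folding transcripts 4 were lower, pdia12 among them (adjusted p = 0.0249), and 0 rose. None of the 9 other J-domain transcripts rose with the block (DNAJB1 at an adjusted p of 0.0551). The 8 shares and ratios kept their values with such pairing, where the smallest p of the sign-flip test is 0.25.

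The depth of each library is not known from the sources used here, so no counting error is given, and precision rests on 3 libraries per group.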
